A study of Mus musculus with 6 samples.

Results

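The transcripts of 33 genes that make cholesterol and fatty acids, or that regulate that synthesis, were followed in macrophages sorted from mouse mammary glands at 8 and 11 weeks. The genes were picked by symbol, with no cut on a measured value, but the list was chosen with earlier results of these data known. All 33 were found among the 43432 genes of the deposited table. The mice were female FVB/N animals of the MMTV-PyMT genotype at both ages, so every library comes from transgenic glands and no group without the transgene was analysed here. In this genotype a mammary tumour virus promoter, active in mammary epithelium, drives the polyomavirus middle T oncogene. Cells were sorted by flow cytometry as CD45+ (a leukocyte marker), MHCII+ (borne by cells that present antigen) and CD14+ (which binds bacterial lipopolysaccharide on myeloid cells), and RNA of each sort was sequenced in 3 libraries per age. The labels number the libraries of an age without saying that each is a separate animal, so the p-values measure the spread between these libraries, which may be technical.

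Cells build cholesterol from acetyl-CoA. The mevalonate arm makes isoprenoid units and joins them to farnesyl diphosphate, and the sterol arm turns these into squalene, lanosterol and finally cholesterol. Fatty acids start from the same acetyl-CoA and are lengthened by elongases and given double bonds by desaturases. Both programmes are controlled by the SREBP transcription factors, which are held in the endoplasmic reticulum by SCAP and INSIG proteins while sterols are plentiful and are cut free when sterols are scarce. In macrophages the pathway also supplies membrane for growth and phagocytosis, ligands of the sterol-sensing LXR receptors and the polyunsaturated fatty acids from which lipid mediators are made.

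The libraries held 38784433 to 75004879 reads, recovered from the deposited values, of which mitochondrially encoded RNA took 38.5% to 56.7%. Values are normalized counts, that is, reads divided by 1 size factor per library, and are given in the order of replicates 1, 2 and 3. The macrophage label was borne out by Lyz2 at 411884.8 to 623180.1, Csf1r at 54613.0 to 70989.5 and Cd68 at 32469.8 to 42875.7 normalized counts. Of 11 tested macrophage markers 6 had a log2 fold change above 0 and 5 below, with a median of 0.02 and 0 called. Csf1r was lower in all 11-week libraries, and Fcgr1, Mrc1 and C1qb were higher in all of them. The ages thus did not overlap for 36.4% of these markers, against 11.9% of all tested genes. Summed markers of other cells also differed between the ages, though few of the single genes were called. The 16 mammary epithelial markers summed to 9431.7 to 12772.2 normalized counts at 8 weeks and 26474.4 to 51419.1 at 11 weeks. Most of this sum came from 1 gene in every library, and that gene was the 1 marker of the 16 called. The 10 neutrophil markers summed to 2694.8 to 4706.2 and 5927.0 to 6599.2. Of the 8 tested, 7 had a log2 fold change above 0, with a median of 2.17 and 0 called. The ages did not overlap for 62.5% of these 8, with 4 higher at 11 weeks and 1 lower. The defining neutrophil gene Ly6g was at 0.0 to 0.9. The 8 fibroblast markers summed to 1629.1 to 2600.3 and 3041.3 to 3816.9, with 7 of the 8 log2 fold changes above 0 and 0 called. The 7 endothelial markers summed to 269.8 to 454.4 and 621.0 to 1118.4, so their sum was also higher in all 11-week libraries. Gene by gene they were mixed, with 4 above 0 and 3 below, a median log2 fold change of 0.10 and 0 called. Cdh5 was higher and Tek lower in all 11-week libraries. The part of these cells in the pathway's values was not tested.

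No gene of the pathway passed the test for a difference between the ages. With limma on log2(normalized count + 1), 0 of the 33 members passed a Benjamini-Hochberg adjusted p of 0.05, where 0.0507% of all 21675 tested genes passed (11 genes), and 3 members had an unadjusted p under 0.05 (9.09%, against 8.03% of all tested genes). Fits of the recovered reads by edgeR's quasi-likelihood test, by DESeq2 and by limma-voom also called 0 members. They called 3, 449 and 8 genes among all those that each fit tested, which were not the same genes in each. Among the authors' deposited adjusted p-values, 0 of the 32 members with an adjusted p were under 0.05, against 1.91% of all genes there. The median log2 fold change from 8 to 11 weeks was -0.06 over the members and 0.05 over all tested genes, with 15 members above 0 and 18 below. All 33 members passed the filter on low values.

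The 3 libraries of one age lay wholly apart from those of the other in 2 members, Elovl5 and Acsl4. That is 6.06% of the members, below the 11.9% of all tested genes for which this held (6.81% higher at 11 weeks and 5.12% lower). Both act on long-chain polyunsaturated fatty acids: Elovl5 encodes an elongase that lengthens them, and Acsl4 encodes the acyl-CoA synthetase that prefers arachidonic acid. Elovl5 stood at 3368.6, 2619.7 and 3093.5 normalized counts in the 8-week libraries and 2268.4, 1740.0 and 1853.5 in the 11-week libraries. Every 8-week library was above every 11-week library. The mean was 3027 ± 379 at 8 weeks (SD, n = 3) and 1954 ± 278 at 11 weeks (SD, n = 3). The log2 fold change of Elovl5 was -0.63 ± 0.24 (SE, n = 3 per age), a fold of 0.645 with a 95% confidence interval of 0.451 to 0.921, and did not pass the test (limma adjusted p = 0.5).

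Acsl4 went the other way. It stood at 2505.5, 3320.7 and 2691.3 normalized counts in the 8-week libraries and 4745.4, 4026.3 and 3460.4 in the 11-week libraries. The lowest 11-week library was just above the highest 8-week library. The means were 2839 ± 427 and 4077 ± 644 (SD, n = 3 per age). Its log2 fold change was 0.52 ± 0.23 (SE, n = 3 per age), a fold of 1.43, and it did not pass either (limma adjusted p = 0.601). In the authors' deposited table Elovl5 has a log2 fold change of -0.59 with an adjusted p of 0.122, and Acsl4 has 0.486 with 0.27. In a bulk library of sorted cells, fewer cells that express a gene and less of its RNA per cell cannot be told apart.

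**Figure D1:**
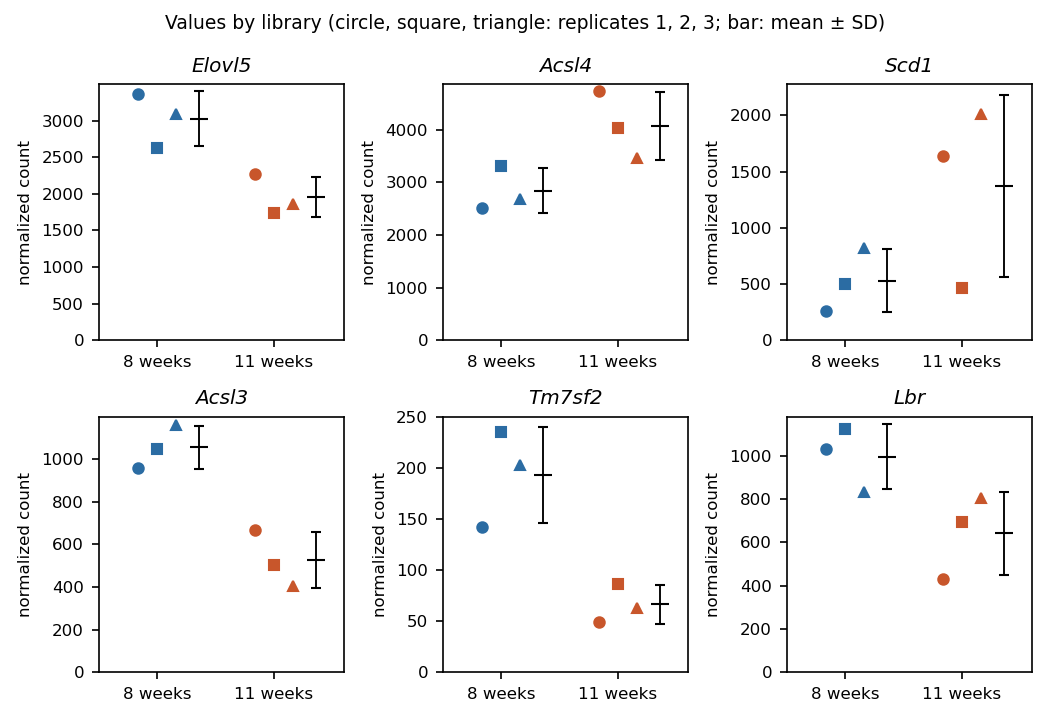
Normalized counts in each library (circles, squares and triangles are replicates 1, 2 and 3) with the mean and SD of each age, for 3 members (Elovl5, Acsl4, Scd1) and 3 other lipid genes (Acsl3, Tm7sf2, Lbr). The ages do not overlap for any of these but Scd1, whose 11-week replicate 2 lies within the 8-week range.

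Elovl5 (ENSMUSG00000032349, chromosome 9 from 77917364 to 77984519, GRCm38) and Acsl4 (ENSMUSG00000031278, X chromosome from 142317993 to 142390535) both encode proteins, and their values cover the whole gene without telling transcripts or exons apart. The 250 bases before their RefSeq transcript starts are shown with those of Hmgcs1, which encodes the synthase that makes HMG-CoA and is shown because it is one of the members with an exact sterol regulatory element. Sequences run 5′ to 3′ on the gene's strand (GRCm38.p6). Capitals mark a sterol regulatory element TCACNCCAC, a CCAAT box or an E-box CACGTG on either strand, and ATTGG is the CCAAT box read from the other strand.

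Hmgcs1, chr13:119690101-119690350, plus strand: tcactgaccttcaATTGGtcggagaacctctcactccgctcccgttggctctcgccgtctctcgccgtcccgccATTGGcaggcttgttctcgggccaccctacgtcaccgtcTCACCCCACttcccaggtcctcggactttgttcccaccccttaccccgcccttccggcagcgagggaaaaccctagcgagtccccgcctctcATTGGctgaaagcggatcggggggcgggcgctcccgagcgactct

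Elovl5, chr9:77917115-77917364, plus strand: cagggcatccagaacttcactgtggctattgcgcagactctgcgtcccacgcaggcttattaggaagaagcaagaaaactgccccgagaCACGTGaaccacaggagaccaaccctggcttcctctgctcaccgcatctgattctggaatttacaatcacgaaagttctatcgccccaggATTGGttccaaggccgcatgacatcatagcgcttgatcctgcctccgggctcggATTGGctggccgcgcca

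Acsl4, chrX:142390536-142390785, minus strand: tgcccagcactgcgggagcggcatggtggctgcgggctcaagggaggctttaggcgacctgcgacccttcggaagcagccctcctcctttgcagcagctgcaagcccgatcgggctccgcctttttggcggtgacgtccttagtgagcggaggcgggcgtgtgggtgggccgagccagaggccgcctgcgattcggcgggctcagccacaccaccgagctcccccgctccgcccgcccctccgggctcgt

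All motifs were searched on both strands, and overlapping matches of different motifs were allowed. The Hmgcs1 sequence holds 1 sterol regulatory element, which begins 137 bases before the start, and 3 CCAAT boxes. That of Elovl5 holds 2 CCAAT boxes and 1 E-box, and that of Acsl4 none of the 3 motifs. RefSeq windows of 300 bases (250 before and 50 after a start) were found for 27 of the 33 members. The CCAAT box stood in at least 1 window of 21 of these 27 genes (77.78%), against 41.06% of all 27025 genes with a window, and in all 7 sterol arm genes that had one. The E-box stood in 6 members (22.22%, against 8.09%). The exact sterol regulatory element stood in 2, Hmgcs1 and Acsl1 (7.41%, against 1.44%). Genes with several windows had more chances to hold a motif, and a match of letters is a description of the sequence, not of binding.

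Among the 5 regulators the log2 fold changes ran from -0.26 (Scap) to 0.41 (Srebf1), with a median of -0.14 and 0 called. Srebf1, which encodes the SREBP1 factor that drives fatty acid genes, stood at 847.9, 464.1 and 657.7 normalized counts in the 8-week libraries and 1646.8, 958.7 and 384.3 in the 11-week libraries. The highest and the lowest of its 6 values were both 11-week libraries. Without 11-week replicate 1 its log2 fold change went from 0.41 to -0.07. Srebf2, which encodes the sterol-directed SREBP2, stood at 994.2, 979.5 and 851.5 normalized counts in the 8-week libraries and 1188.9, 645.2 and 801.2 in the 11-week libraries. Its 8-week libraries lay close together and inside the 11-week range. Insig1, an SREBP target that retains the SCAP complex, stood at 1312.5, 1555.8 and 1078.7 normalized counts in the 8-week libraries and 1181.5, 1005.1 and 1302.4 in the 11-week libraries. Its 95% confidence interval, from -0.79 to 0.45 on the log2 scale, lay inside a 2-fold change either way. Scap, the escort of the SREBPs, stood at 315.6, 652.5 and 691.0 normalized counts in the 8-week libraries and 395.4, 380.0 and 553.8 in the 11-week libraries. The values overlapped between the ages, as did those of Insig2, the other retention protein, which ranged from 340.8 to 802.5 normalized counts.

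In the mevalonate arm 5 of 7 genes were above 0, the median log2 fold change being 0.25, and 0 were called. Pmvk, phosphomevalonate kinase, had the largest, 0.72 ± 0.66 (SE, n = 3 per age; limma adjusted p = 0.815). It stood at 200.6, 540.3 and 163.1 normalized counts in the 8-week libraries and 137.0, 832.7 and 689.7 in the 11-week libraries. Each age held both low and high libraries. Hmgcs1 stood at 506.4, 619.3 and 317.7 normalized counts in the 8-week libraries and 674.0, 661.3 and 423.3 in the 11-week libraries. Its lowest value was in 8-week replicate 3, and its log2 fold change was 0.31 ± 0.41 (SE, n = 3 per age). Idi1, the isomerase of isopentenyl diphosphate, was at 27.6, 11.1 and 9.4 normalized counts in the 8-week libraries and 8.3, 5.0 and 17.2 in the 11-week libraries. These are low levels, and its log2 fold change, the most negative of the arm, was -0.61 ± 1.33 (SE, n = 3 per age). Acat2 (the cytosolic thiolase of the first step), Mvk (mevalonate kinase), Mvd (the decarboxylase) and Fdps (farnesyl diphosphate synthase) overlapped between the ages, and the highest of their 6 values was 2.65 times (Fdps) to 4.91 times (Acat2) the lowest.

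In the sterol arm 7 of 9 genes were below 0, the median log2 fold change being -0.19, and 0 were called. Hsd17b7, a sterol 3-ketoreductase, had the most negative, -0.85 ± 0.64 (SE, n = 3 per age; limma adjusted p = 0.794). It stood at 158.7, 361.6 and 455.2 normalized counts in the 8-week libraries and 71.7, 240.9 and 252.9 in the 11-week libraries. Its lowest value was 11-week replicate 1, and the other 11-week libraries lay within the 8-week range. Nsdhl, the sterol dehydrogenase that acts beside it, had the most positive, 0.40, and stood at 1087.8, 482.1 and 1039.4 normalized counts in the 8-week libraries and 863.4, 1257.1 and 1164.7 in the 11-week libraries. Its low value was 8-week replicate 2. Lss, lanosterol synthase, stood at 337.9, 369.9 and 508.2 normalized counts in the 8-week libraries and 589.4, 92.7 and 356.2 in the 11-week libraries. Its 11-week replicate 2 was far below the rest. Dhcr7, the reductase of the last step to cholesterol, stood at 660.7, 671.9 and 708.0 normalized counts in the 8-week libraries and 950.7, 285.3 and 790.3 in the 11-week libraries. In both the lowest library was 11-week replicate 2, and without it their log2 fold changes went from -0.57 to 0.20 and from -0.18 to 0.35. Sqle, squalene epoxidase, an early oxidation step often limiting for sterols, ranged from 198.6 to 320.9 normalized counts with a log2 fold change of -0.06. Fdft1 (squalene synthase), Cyp51 (lanosterol demethylase), Ebp (sterol isomerase) and Sc5d (sterol desaturase) overlapped between the ages, with log2 fold changes of -0.19, -0.46, -0.30 and 0.006.

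Acly, Acaca and Fasn build the fatty acid chain from citrate. Acly, ATP citrate lyase, stood at 3545.1, 3675.4 and 4043.3 normalized counts in the 8-week libraries and 3388.3, 4442.6 and 2702.7 in the 11-week libraries. The 8-week libraries lay within the 11-week range, and the 95% confidence interval of the log2 fold change ran from -0.62 to 0.37. Acaca, acetyl-CoA carboxylase, stood at 373.6, 290.9 and 684.1 normalized counts in the 8-week libraries and 555.4, 446.6 and 370.7 in the 11-week libraries. Its highest and lowest values were both 8-week libraries, and its log2 fold change was 0.10 ± 0.44 (SE, n = 3 per age). Fasn, fatty acid synthase, stood at 797.1, 944.8 and 790.9 normalized counts in the 8-week libraries and 1232.1, 389.1 and 1059.5 in the 11-week libraries. Its 11-week replicate 2 was below every other library and replicates 1 and 3 were above every 8-week library. Without 11-week replicate 2 the log2 fold change of Fasn went from -0.08 to 0.44.

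Among the 7 desaturases and elongases Scd1 had the largest log2 fold change, 1.26 ± 0.52 (SE, n = 3 per age; limma adjusted p = 0.559). Scd1 (ENSMUSG00000037071, chromosome 19 from 44394451 to 44407709) encodes a stearoyl-CoA desaturase that makes oleate, and stood at 263.9, 502.9 and 823.3 normalized counts in the 8-week libraries and 1641.3, 461.7 and 2007.6 in the 11-week libraries. At 11 weeks replicates 1 and 3 were above every 8-week library, and replicate 2 was within the 8-week range. Without replicate 2 the log2 fold change was 1.92 (limma adjusted p = 0.263). Epithelial markers were also lowest in that library among the 11-week libraries (summed 26474.4 normalized counts, against 51419.1 and 47672.0), and 15 of the 16 had a positive log2 fold change. Of these, Epcam stood at 321.9, 191.2 and 303.2 normalized counts in the 8-week libraries and 656.5, 276.2 and 1370.4 in the 11-week libraries. Krt5 was listed at 0 in 2 libraries and Krt14 and Cldn3 in 1 each. The 14 adipocyte markers, most of their sum being Lpl, came to 9355.5 to 10318.3 normalized counts at 8 weeks and 5570.7 to 9181.4 at 11 weeks. Lpl, which macrophages also make, was lower in every 11-week library, but 9 of the 13 tested adipocyte markers were above 0, with a median log2 fold change of 0.71. Among them Plin1, Gpd1 and Pparg were higher in all 11-week libraries, Plin1 at 0 in the 8-week libraries and 4.6 to 58.9 in the 11-week libraries. Cidea was listed at 0 in all 6 libraries, Lep in 5, and Adipoq at 0.0 to 113.6. The part of either cell type in the Scd1 values was not tested.

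Scd2, the related desaturase, stood at 1610.3, 3003.5 and 1089.8 normalized counts in the 8-week libraries and 2268.4, 3491.0 and 1258.9 in the 11-week libraries. Its order over the libraries differed from that of Scd1, and the ratio of Scd2 to Scd1 per kilobase of exon ran from 0.561 in 11-week replicate 3 to 6.77 in 11-week replicate 2. Fads1, the delta-5 desaturase of polyunsaturated fatty acids, stood at 4661.5, 4938.9 and 4119.3 normalized counts in the 8-week libraries and 2478.0, 5370.1 and 4703.0 in the 11-week libraries. Its 11-week replicate 1 was low, and the next library was at 4119.3. Fads2, the delta-6 desaturase that acts before it, was at 2.0 to 62.5 normalized counts, so that per kilobase of exon Fads1 was 44.0 to 1839 times as high as Fads2. Elovl1, which makes very long saturated chains, ranged from 1748.0 to 2522.4 and Elovl6, which lengthens palmitate, from 281.9 to 425.1, with log2 fold changes of -0.02 and 0.26. Acsl1, the other acyl-CoA synthetase of the set, stood at 2016.0, 1596.0 and 1379.4 normalized counts in the 8-week libraries and 1898.7, 2221.8 and 1610.6 in the 11-week libraries, with a log2 fold change of 0.20 ± 0.27 (SE, n = 3 per age) and overlapping ages.

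**Figure D2:**
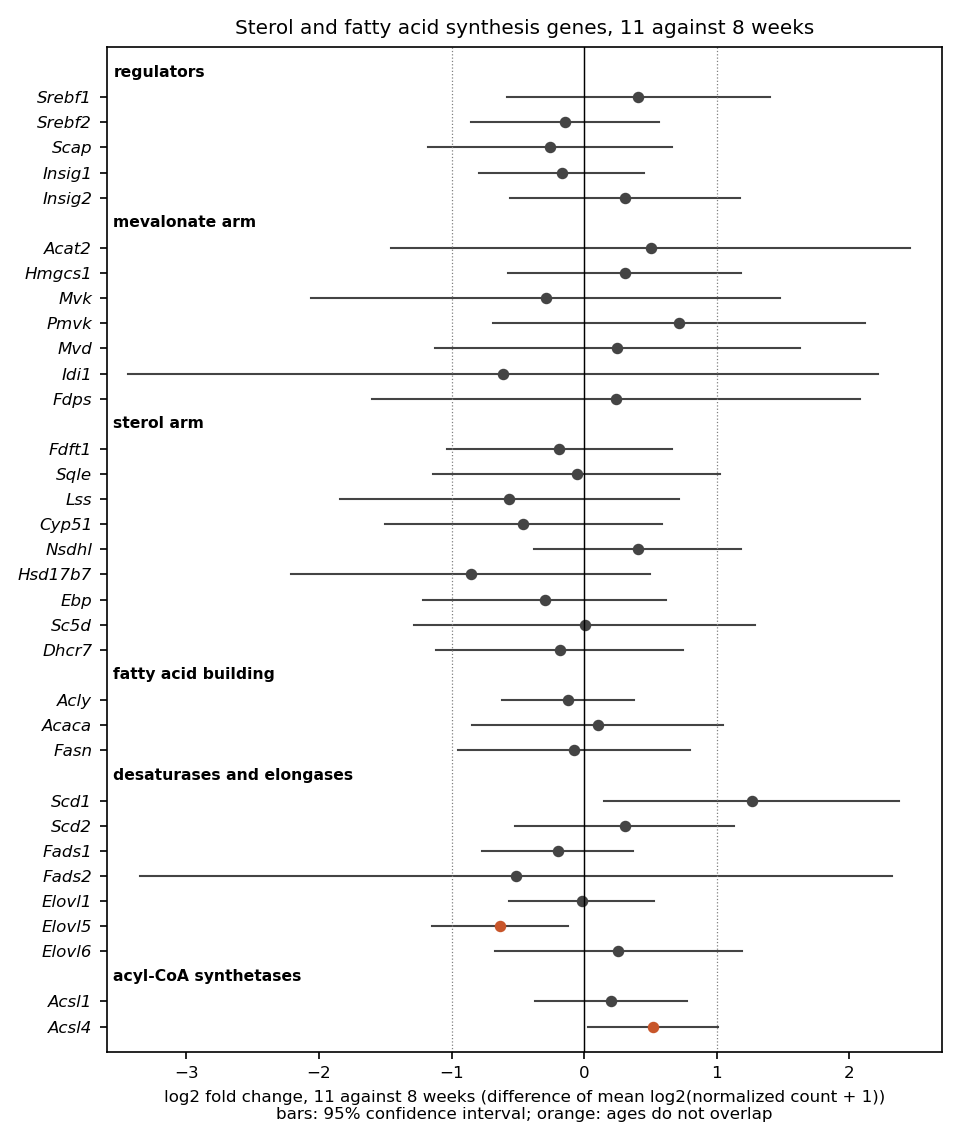
Log2 fold change from 8 to 11 weeks of each of the 33 genes with its 95% confidence interval, by role; dotted lines mark a 2-fold change and orange points the genes whose ages do not overlap (Elovl5, Acsl4). Only the intervals of Scd1, Elovl5 and Acsl4 leave out 0, before adjustment for the number of genes tested.

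The precision differed with the gene. The 95% confidence interval lay within a 2-fold change either way for 7 of the 33 members (21.2%, against 18.6% of all tested genes): Srebf2, Insig1, Acly, Fasn, Fads1, Elovl1 and Acsl1. Among genes whose mean reached 100 normalized counts the order was reversed, with 24.1% of the members against 37.5% of all tested genes at that level. For none of the 16 mevalonate and sterol arm genes did the interval lie within a 2-fold change. The median SD between libraries of one age was 0.53 on the log2 scale over the members, 0.80 over the mevalonate arm and 0.67 over the sterol arm. For the 29 members whose mean reached 100 normalized counts it was 0.49, against 0.44 over the 10727 tested genes at that level. For every member outside those 7 the interval took in a 2-fold change in at least one direction, and 3 libraries per age left that size undecided.

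The members did not follow one order of the libraries. Each library was the highest for 3 to 8 of the 33 genes. Replicate 2 of 11 weeks was the lowest of the 6 for 11 members (33.3%), while it was the lowest for 11.9% of all tested genes and for 16.1% of those whose mean reached 100 normalized counts. These 11 were Srebf2, Insig1, Idi1, Sqle, Lss, Ebp, Dhcr7, Fasn, Fads2, Elovl1 and Elovl5. The gap was wide for Lss (92.7 against 337.9 in the next library), Dhcr7 (285.3 against 660.7), Fasn (389.1 against 790.9) and Fads2 (2.0 against 17.1), and narrow for Elovl1 (1748.0 against 1772.3). Replicate 3 of 8 weeks was the lowest for 8 members (24.2%, against 17.6% of all tested genes). The 11-week replicate 2 also had the highest value of Acly, Fads1, Scd2, Pmvk, Nsdhl and Acsl1. The markers of dividing cells summed to 34730.9, 25396.8 and 26931.4 normalized counts in the 8-week libraries and 17416.9, 32568.2 and 19186.5 in the 11-week libraries. Over all 6 libraries the highest sum was in 8-week replicate 1, which was the lowest library for 4 members. Among the 11-week libraries the highest sum was in replicate 2. Of the 8 markers 7 had a log2 fold change below 0, with a median of -0.40 and 0 called. The part of cell division or of other cell types in this pattern was not tested.

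**Figure D3:**
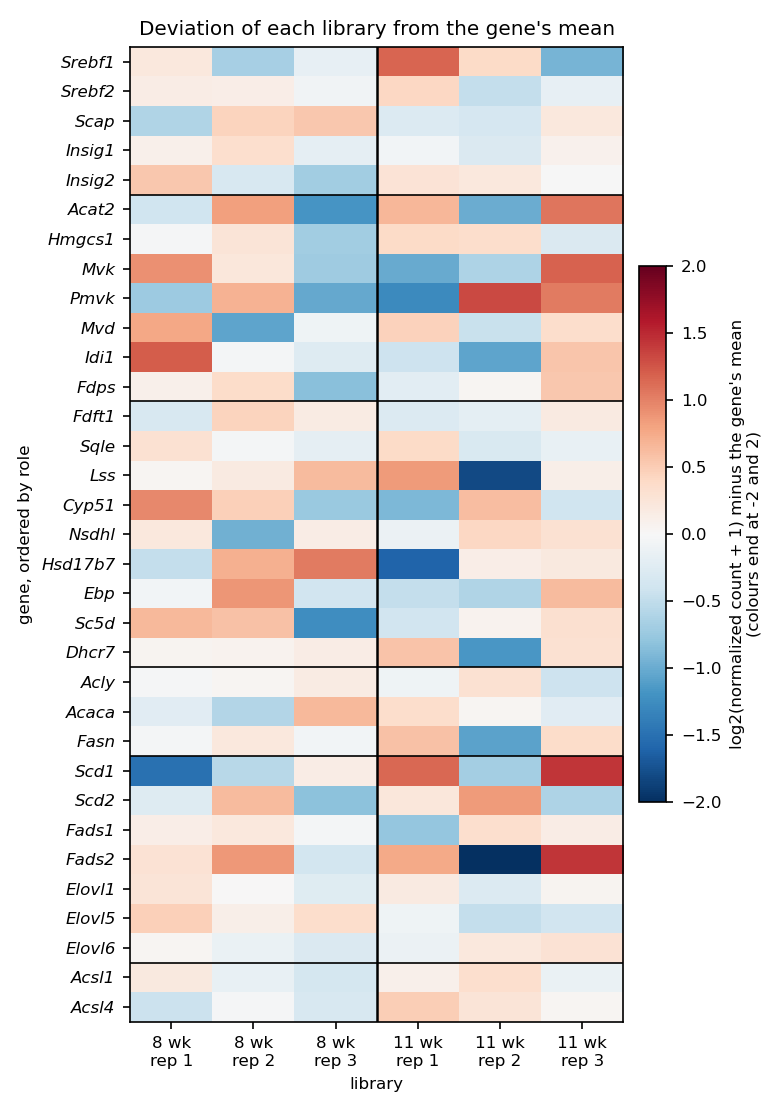
Each gene's log2(normalized count + 1) minus its own mean over the 6 libraries, as colour, with genes ordered by role and the ages divided by the vertical line. Dark blue cells for Lss, Dhcr7, Fasn and Fads2 stand in 11-week replicate 2.

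Levels were compared between genes per kilobase of annotated exon. Fads1, Elovl1, Elovl5, Acly and Acsl4 led, with means of 910, 779, 707, 688 and 640 normalized counts per kilobase, and their ranges over the libraries overlapped. Insig1 was the highest regulator (401), Nsdhl (344) and Ebp (331) the highest of the sterol arm and Pmvk (249) the highest of the mevalonate arm. Srebf1 (147) and Srebf2 (127) overlapped in range. Idi1 (3.74), Fads2 (9.58), Fdps (15.4), Acaca (26.6) and Acat2 (31.5) were the lowest.

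Of the 5 lowest genes, 4 share much of their sequence with other annotated genes. Of the 50-base windows of its longest coding transcript in GENCODE vM21, Fdps shared 86.4% with other genes (77.3% with Gm43738, which is annotated as protein-coding). Acaca shared 52.6%, with the processed pseudogene Gm5182. Neither Gm43738 nor Gm5182 is among the genes of the deposited table. Acat2 shared 45.9% (mostly with its near-copy Acat3, at 0.0 to 26.3 normalized counts) and Idi1 30.5%, most of it with processed pseudogenes. Fads2 was low with 0.2% shared. How multi-mapping reads were treated is not stated, so the levels of these 4 genes are uncertain, and the part of shared sequence in them was not tested. Fdft1 overlaps the lysosomal protease gene Ctsb on the opposite strand over 767 bases. Ctsb holds 19.9% of the Fdft1 windows and stood at 174371.7 to 241955.4 normalized counts. Whether counting used the strand is not stated, so Fdft1, at 395.0 to 671.9, is uncertain as well. The same limit holds for Acat2, as Tcp1 on the opposite strand holds 13.2% of its windows and stood at 1348.6 to 4922.5. For Cyp51 the share is smaller, with 3.0% of its windows held by Akap9 on the opposite strand, at 4745.4 to 6963.5.

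**Figure D4:**
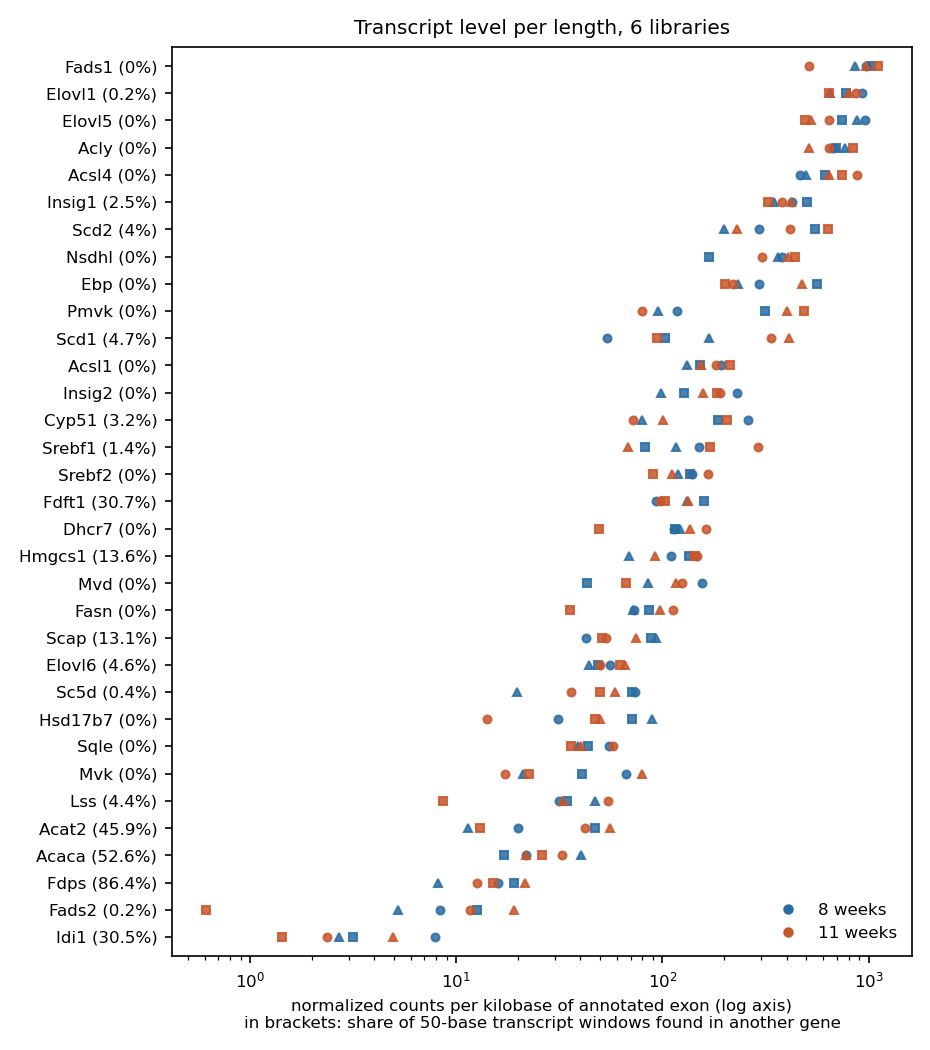
Normalized counts per kilobase of annotated exon on a log axis in each of the 6 libraries, with genes ordered by their mean; brackets give the share of 50-base transcript windows found in another gene. Fads1 heads the order and Idi1 ends it, and blue (8 weeks) and orange (11 weeks) points mix for every gene but Elovl5 and Acsl4.

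Other genes of lipid metabolism, from lists chosen with earlier results of these data known, gave 0 calls as well (limma, 73 tested genes in 6 lists). Of these 5 had an unadjusted p under 0.05 (6.85%, against 8.03% of all tested genes), and 6 had ages that did not overlap (8.22%, against 11.9%). Both shares were below those of all genes, so the genes named next are a description of their values. Of 7 tested sterol synthesis genes outside the 33, 5 were below 0. Tm7sf2 and Lbr, which both encode sterol C14 reductases, were the 2 whose ages did not overlap. Tm7sf2 stood at 142.7, 235.5 and 203.3 normalized counts in the 8-week libraries and 49.7, 86.7 and 63.4 in the 11-week libraries. The 11-week libraries were all lower, with a log2 fold change of -1.53 ± 0.69 (SE, n = 3 per age; limma adjusted p = 0.607). Lbr, which is also the lamin B receptor of the nuclear envelope, stood at 1031.6, 1122.2 and 832.7 normalized counts in the 8-week libraries and 431.2, 691.5 and 803.9 in the 11-week libraries. Its 8-week replicate 3 was close to 11-week replicate 3, and the log2 fold change was -0.67 ± 0.35 (SE, n = 3 per age; limma adjusted p = 0.669). Idi2, a relative of Idi1, was listed at 0 in 5 libraries and at 40.1 in 8-week replicate 3.

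Acsl3, an acyl-CoA synthetase of lipid droplets, was the member of its list of 12 tested genes whose ages did not overlap. It stood at 958.5, 1046.0 and 1159.0 normalized counts in the 8-week libraries and 665.7, 502.0 and 407.0 in the 11-week libraries. All 11-week libraries were lower, the opposite order to Acsl4, with a log2 fold change of -1.03 ± 0.35 (SE, n = 3 per age; limma adjusted p = 0.422). In the authors' deposited table Acsl3 has a log2 fold change of -0.895 with an adjusted p of 0.037. An adjusted p under 0.05 held for 1.91% of all genes there. Lpin1, Acsl5 and Agpat2, with the next smallest p, overlapped (log2 fold changes -0.63, -0.37 and -0.68). Fads6, a desaturase-like gene, was at 85.6, 63.7 and 23.1 normalized counts in the 8-week libraries and 267.6, 226.8 and 175.8 in the 11-week libraries. It was higher in all 11-week libraries, at a low level (log2 fold change 2.11 ± 0.75, SE, n = 3 per age; limma adjusted p = 0.457). Elovl2 and Scd3 were at 0.0 to 34.8 and 0.0 to 23.2, and Tecr, the reductase that completes each elongation cycle, had a log2 fold change of -0.18.

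Of 14 genes of SREBP processing and sterol sensing, 6 were above 0 and 8 below. Nr1h3, which encodes the sterol receptor LXR alpha, stood at 124.8, 336.6 and 45.3 normalized counts in the 8-week libraries and 491.0, 429.4 and 240.2 in the 11-week libraries. The ages overlapped only through 8-week replicate 2 and 11-week replicate 3, and the log2 fold change was 1.57 ± 0.69 (SE, n = 3 per age; limma adjusted p = 0.599). Erlin1, part of an endoplasmic reticulum complex that restrains SREBP, stood at 2063.2, 1925.7 and 2566.6 normalized counts in the 8-week libraries and 1518.1, 1812.5 and 988.8 in the 11-week libraries. All 11-week libraries were lower (log2 fold change -0.63; limma adjusted p = 0.609). Mbtps2, a protease that frees SREBP, had a log2 fold change of -0.58 with overlapping ages.

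Of 18 genes that supply acetyl-CoA, malonyl-CoA and NADPH, 12 were above 0, with a median of 0.17. G6pdx, the entry to the pentose phosphate pathway and a main source of NADPH, was the one whose ages did not overlap. It was chosen after its values were seen, and stood at 5783.1, 5795.0 and 6279.3 normalized counts in the 8-week libraries and 7340.2, 6439.6 and 6340.8 in the 11-week libraries. The 11-week libraries were higher by little (log2 fold change 0.17; limma adjusted p = 0.829). Acss2, acetyl-CoA synthetase, was at 253.2, 63.7 and 116.2 normalized counts in the 8-week libraries and 139.8, 11.1 and 9.1 in the 11-week libraries. Its 11-week replicates 2 and 3 were below the others. Thrsp, at 101.6 to 523.9 normalized counts, had a log2 fold change of 1.06 with overlapping ages. Me1 (malic enzyme) and Acacb had 1.75 and 2.33 at lower levels, 6.9 to 177.6 and 0.0 to 31.3. Fatty acid oxidation genes, which run the reverse of synthesis, had a median of -0.15 over 11, with 0 whose ages did not overlap. Among them Cpt1a, the gate of mitochondrial uptake, ranged from 4396.7 to 8363.3, Slc25a20 had -0.64, Mlycd -0.42, and Ppara was listed at 0 in 5 libraries.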

How the data were processed

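The deposited table gives 1 signal value per gene and library. Per the submitters' processing notes the authors used STAR 2.4, DESeq2 1.6 and GRCm38, with no role given. No label names the counting tool. Per the labels' protocols, less than 100 ng of RNA was amplified for each library, which can add noise to low genes. The deposited signal values are reads divided by 1 size factor per library, written to 1 decimal: multiples of each library's smallest step, to a tolerance of 0.05, made up at least 99.599% of its values above 0. The deposited table also holds the authors' log2 fold change, fold ratio, p-value and adjusted p-value for 11 against 8 weeks.

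Table columns were matched to samples by age and number. Genes whose mean reached 1 in either age entered limma (trend and robust empirical Bayes) on log2(value + 1), with age as the only term and Benjamini-Hochberg adjustment over all 21675. Fold changes are differences of means on that scale, and the added 1 makes those of low genes smaller. Where values of an age are spread, they can also differ from the ratio of the plain means in size or sign. For Fads2 the plain mean was 28.8 at 8 weeks and 34.4 at 11 weeks, while the log2 fold change was -0.52. Alternatives were other scalings, pseudocounts and filters, a replicate block, leaving out each library, and fits of the recovered reads by edgeR, DESeq2 and limma-voom. The fits were also run on simulated data, and no statement here rests on that run. No pair of libraries of one age was identical or within counting noise (chi-square per degree of freedom 116.25 to 331.5).

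The members and lists were chosen with earlier results of these data known. Values per library are given for members whose ages do not overlap, for the SREBP genes, and for the highest gene and both extremes of fold change in each role; of each other list up to 4 genes with the smallest p are named, except some that are not reported here. Hmgcs1, Lss, Dhcr7, Fasn and Scd2 were added after their values were seen. Exon lengths and transcript windows are from GENCODE vM21 (GRCm38), in which 33 of 33 members overlapped their deposited span, and promoters from RefSeq (GRCm38.p6). Tables and figures were made with pandas 2.3.3 and matplotlib 3.10.9 in Python 3.11.15, and fits with limma 3.58.1, DESeq2 1.42.0 and edgeR 4.0.16 in R 4.3.3.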

Additional observations from a re-analysis of the deposited data

How the results depend on the processing

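No member was called in any of the 18 alternatives run. The smallest adjusted p was 0.0976, for Elovl5 with DESeq2. Elovl5 stayed between -0.75 and -0.55, Acsl4 between 0.41 and 0.64 and Scd1 between 0.84 and 1.92 on the log2 scale, and 16 of the 33 members had the same sign throughout. The members' median moved by less than its spread between libraries in all of them. The number of called genes over all genes that a fit tested was 11 in the main fit. It was 4 with equal library totals, 5 with a pseudocount of 8, 45 with the replicate block, 3 with edgeR and 449 with DESeq2. On leaving out each library it was 3 to 16 (3 without 8-week replicate 1 and 4 without 11-week replicate 1). The cause was not tested. Same-numbered libraries did not deviate together (r = -0.026, -0.004 and -0.024), so the numbers were not taken as pairs, and no library correlated best with its own number. On leaving out each library 7 members changed sign by more than their SE. Srebf1 ran from -0.07 to 0.98, Lss from -1.13 to 0.20, Sc5d from -0.62 to 0.33, Dhcr7 from -0.52 to 0.35, Fasn from -0.39 to 0.44, Fads1 from -0.42 to 0.14 and Fads2 from -1.36 to 0.84. Idi1 and Fads2, at 2.0 to 62.5 normalized counts, rest on few reads.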
